A study of Mus musculus with 4 samples.

Results

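The 10 genes of renal water and urea handling followed here across the cells of mouse kidney were the water channel genes Aqp1, Aqp2, Aqp3, Aqp4, Aqp6, Aqp7 and Aqp11, the vasopressin receptor gene Avpr2, the urea transporter gene Slc14a2 and the aldose reductase gene Akr1b3. They were taken by symbol from the 32285 genes listed, and all 10 were detected in every library. The question was whether the urinary glucose loss of mice without working SGLT2 goes with a change in these genes. SGLT2, encoded by Slc5a2, recovers filtered glucose in the early proximal tubule.

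The kidneys came from male C3H mice. WT mice and Sweet Pee mice (SP, the MT samples of the labels), which carry a missense mutation in both copies of Slc5a2 and lose glucose in the urine, received a normal diet (ND) or a high-fat diet (HFD, 60% of calories from fat) for 8 weeks from 10 weeks of age and were examined at 18 weeks. Minced whole kidney was digested with enzymes and run as droplet-based 3′ single-cell RNA-Seq, 1 library for each genotype and diet (WT-ND and WT-HFD, then SP-ND and SP-HFD). The number of mice behind a library was not stated. A single library stands for each condition, which leaves no replicates and allows no test. Every interval given here is an exact 95% interval for counting error only, and a difference between libraries cannot be told apart from a difference between the kidneys or digests that made them.

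Levels are pooled CPM, the unique molecular identifiers (UMIs) of a gene summed over all cells of a class in a library, per 1000000 UMIs of those cells. Ratios between libraries are on the log2 scale, HFD over ND or SP over WT. Where 4 values are listed without names, the order is WT-ND, then WT-HFD, then SP-ND, then SP-HFD. A ratio was counted as past 1.5-fold where it was at least 1.5-fold in either direction, its interval excluded equality and the gene had at least 20 UMIs over both libraries, and its direction is given as higher or lower. The same count over all genes of the class is given beside it as background.

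As background, vasopressin binds the receptor AVPR2 on the basolateral side of collecting duct principal cells, raises cyclic AMP and moves AQP2 to the apical membrane. Water then leaves the cell through AQP3 and AQP4 on the opposite side. AQP1 makes the proximal tubule, the descending thin limb and the descending vasa recta permeable to water, UT-A urea transporters from Slc14a2 recycle urea in the medulla, and aldose reductase makes sorbitol, an osmolyte that medullary cells gather against a salty interstitium. AQP6 lies in vesicles of acid-secreting type A intercalated cells, AQP7 carries water and glycerol in the last proximal segment, and AQP11 is an intracellular channel of the proximal tubule.

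Aqp2 and Aqp6, and likewise Aqp3 and Aqp7, lie close together in the genome. In GENCODE vM21, Aqp2 (GRCm38 chromosome 15, 99579055 to 99584547, + strand) and Aqp6 (chromosome 15, 99601400 to 99605477, + strand) have RefSeq starts 22144 bases apart, with Aqp5 between them. Aqp1 (55336432 to 55348555, + strand) and Akr1b3 (34302434 to 34317478, - strand) are on chromosome 6, Aqp3 (41092722 to 41098183, - strand) and Aqp7 (41033074 to 41048139, - strand) on chromosome 4, Aqp11 on chromosome 7 (97724006 to 97738289, - strand) and Avpr2 on chromosome X (73892102 to 73895502, + strand). The bases before the start of Aqp2 and Aqp6 are shown because the pair differs in the cells that use it: Aqp2 was a principal cell gene and Aqp6 a type A intercalated cell gene in all 4 libraries. The sequences are the 250 bases before each start in RefSeq on GRCm38.p6, + strand, chr15:99578806-99579055 for Aqp2 and chr15:99600950-99601199 for Aqp6, with any match to the 4 motifs searched in capitals.
Aqp2: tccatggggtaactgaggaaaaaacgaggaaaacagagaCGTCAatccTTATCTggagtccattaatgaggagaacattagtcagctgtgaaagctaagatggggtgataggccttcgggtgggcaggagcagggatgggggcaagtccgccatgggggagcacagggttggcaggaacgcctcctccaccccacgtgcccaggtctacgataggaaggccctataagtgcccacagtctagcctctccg
Aqp6: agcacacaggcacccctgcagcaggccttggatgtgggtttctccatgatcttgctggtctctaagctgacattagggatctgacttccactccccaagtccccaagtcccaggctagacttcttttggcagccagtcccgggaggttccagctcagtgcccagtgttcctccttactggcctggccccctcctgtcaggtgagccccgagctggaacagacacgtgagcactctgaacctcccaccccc

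Both strands were searched. The window of Aqp2 held the cyclic AMP response element half-site TGACG on the other strand, read as CGTCA from base 211 to base 207 before the start. It also held the GATA core AGATAA on the other strand, read as TTATCT from base 202 to base 197. Neither overlapped the other. The tonicity element core TGGAAA and the forkhead core TAAACA were not among these letters, and the Aqp6 window matched none of the 4. Over all 32851 RefSeq windows, 17.8% held TGACG, 10.0% held AGATAA, 18.6% held TGGAAA and 12% held TAAACA. Of the 7 members with a window, TGACG was found for Aqp2, AGATAA for Aqp2 and Aqp7, TGGAAA for Aqp7 and TAAACA for Avpr2. A match describes the letters and is not a shown binding site.

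The libraries held 13229 to 16385 barcodes with 90728590 to 115117649 UMIs. Barcodes with under 200 or over 5000 genes, those with 50% or more mitochondrial UMIs and scored doublets were removed. After that, 6389 to 9924 cells per library remained, 32280 in all, with a median of 3448 to 5346 UMIs. Barcodes at or over the mitochondrial limit were 32.7% in WT-ND and 49.8% in SP-ND, and 33.2% in WT-HFD and 42.1% in SP-HFD. Their share was thus larger in both SP libraries, and its part in the genotype ratios was not tested. Between 54 and 77 barcodes were shared by any pair of deposited libraries. Slc5a2 in proximal tubule S1/S2 cells was at 562 CPM in WT-ND and 83.4 in SP-ND, and 399 in WT-HFD and 138 in SP-HFD. It was lower in both SP libraries, but a missense allele is still transcribed, so this level does not check the labels. WT-HFD stood apart. Of 1 cluster of 860 cells, 98.1% were from WT-HFD, and the cluster with fibroblast genes drew most of its cells from it (1183 of 1409). No ratio between libraries is given for that fibroblast cluster. Its cells do count in the shares of UMIs by class and in the comparison of gene patterns over classes.

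Shares by class are of a library's UMIs in kept cells only. Principal cells held 68.1% to 86.9% of Aqp2 and 80.2% to 91.7% of Aqp4, and intercalated cells 71.5% to 96.8% of Aqp6. Thin limb cells held 74.4% to 94.3% of Slc14a2 and proximal tubule cells 55.5% to 72.9% of Aqp11. WT-HFD was the lowest for Aqp2, Aqp6 and Slc14a2. In that library the cluster with fibroblast genes held 3395 of 26890 Aqp2, 1054 of 6018 Aqp6 and 564 of 3936 Slc14a2 UMIs. Aqp1 was shared out, with 35.2% to 44.4% in thin limb cells, 12.2% to 28.3% in proximal tubule and 15.4% to 40.1% in endothelium. By mean level over the libraries, Aqp11 was highest in the arterial or descending vasa recta endothelium, at 39.2 CPM against 31.4 CPM in proximal tubule S1/S2. The endothelial levels were 37.9, 25.8, 47.2 and 46.0 CPM, from 34, 24, 52 and 67 UMIs. In WT-HFD proximal tubule S1/S2 was above the endothelium. T or NK cells, which are not cells of the nephron, carried 33.0 to 100.05 CPM of Aqp2, 28.1 to 36.1 CPM of Aqp3, 14.1 to 31.5 CPM of Aqp1 and at most 6.25 CPM of Aqp4, Aqp6 or Slc14a2. These levels serve as a reference below. Whether they are background or RNA of those cells was not tested. A single cell held 9.52% to 56.25% of the T or NK Aqp2 UMIs of a library.

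**Figure D1:**
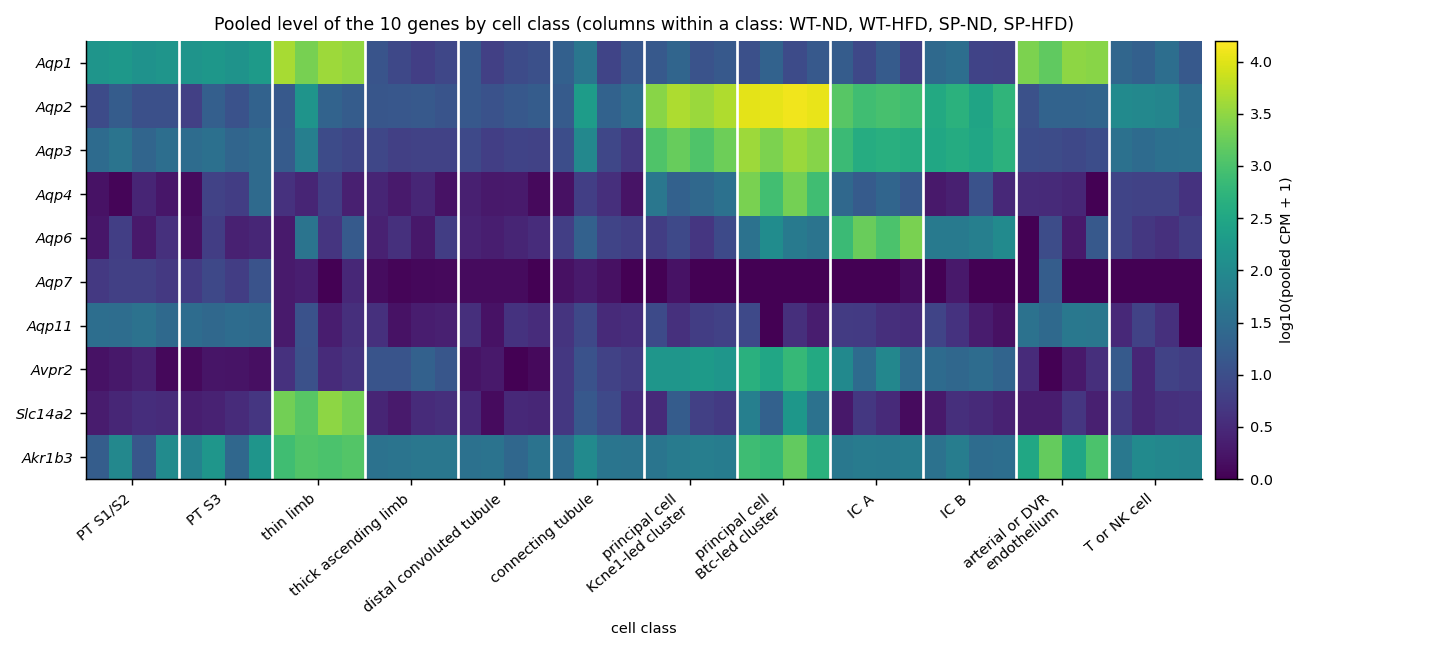
Pooled level of each of the 10 genes (rows) in 12 cell classes, with 1 column per library in the order WT-ND, then WT-HFD, then SP-ND, then SP-HFD within a class; the colour is log10(CPM + 1), and PT is proximal tubule, IC intercalated cell and DVR descending vasa recta. Aqp2 and Aqp4 were brightest in principal cells, Aqp6 in type A intercalated cells and Slc14a2 in thin limb cells, while Akr1b3 was bright in thin limb, Btc-led principal and arterial or descending vasa recta endothelial cells.

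Each member was followed in the cells where the nephron is known to use it, 21 pairs of gene and class in all. Between the WT diets 10 of 21 pairs were past 1.5-fold (6 higher and 4 lower in WT-HFD), and between the SP diets 6 of 19 with enough UMIs (2 higher and 4 lower in SP-HFD). Between the genotypes 4 of 20 were past it on ND, all higher in SP-ND, and 4 of 21 on HFD (2 higher and 2 lower in SP-HFD). Aqp2, Aqp3 and Avpr2 in connecting tubule were among the pairs higher in WT-HFD. The 2 lower in SP-HFD than in WT-HFD were Aqp2 and Aqp3 in that class. Outside WT-HFD the connecting tubule levels of Aqp2 and Aqp3 were under those of T or NK cells, so these calls rest on WT-HFD alone. Over all genes of the same classes the share past 1.5-fold was 14.2% between the WT diets (6.78% higher, 7.39% lower), 10.3% between the SP diets (5.75% higher, 4.59% lower), 6.41% between the genotypes on ND (3.01% higher, 3.4% lower) and 8.32% on HFD (4.84% higher, 3.48% lower). In that order, the median log2 ratio of the pairs was 0.18, -0.12, 0.30 and 0.03, and that of all genes -0.03, 0.03, 0.02 and 0.08. Among the 16 pairs with at least 200 UMIs, 7, 4, 3 and 3 were past 1.5-fold, where all such genes gave 11.5%, 8.67%, 3.68% and 4.83%. The diet pairs share no library with each other, and neither do the genotype pairs. Aqp6 in type A intercalated cells and Aqp7 in proximal tubule S3 were higher and Aqp4 in principal cells lower on HFD in both genotypes, and Slc14a2 in thin limb cells was higher in SP on both diets. The share of all genes past 1.5-fold the same way in both pairs was not computed, so these repeats have no background beside them. Of the 24 ratios past 1.5-fold, 9 stayed past it in each alternative that gave a value, Aqp6 in both diet pairs among them. Another 8 fell short of it in some alternatives, and 7 turned direction in at least 1, among them Aqp7 between the SP diets, Aqp4 between the WT diets and Slc14a2 in thin limb cells.

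**Figure D2:**
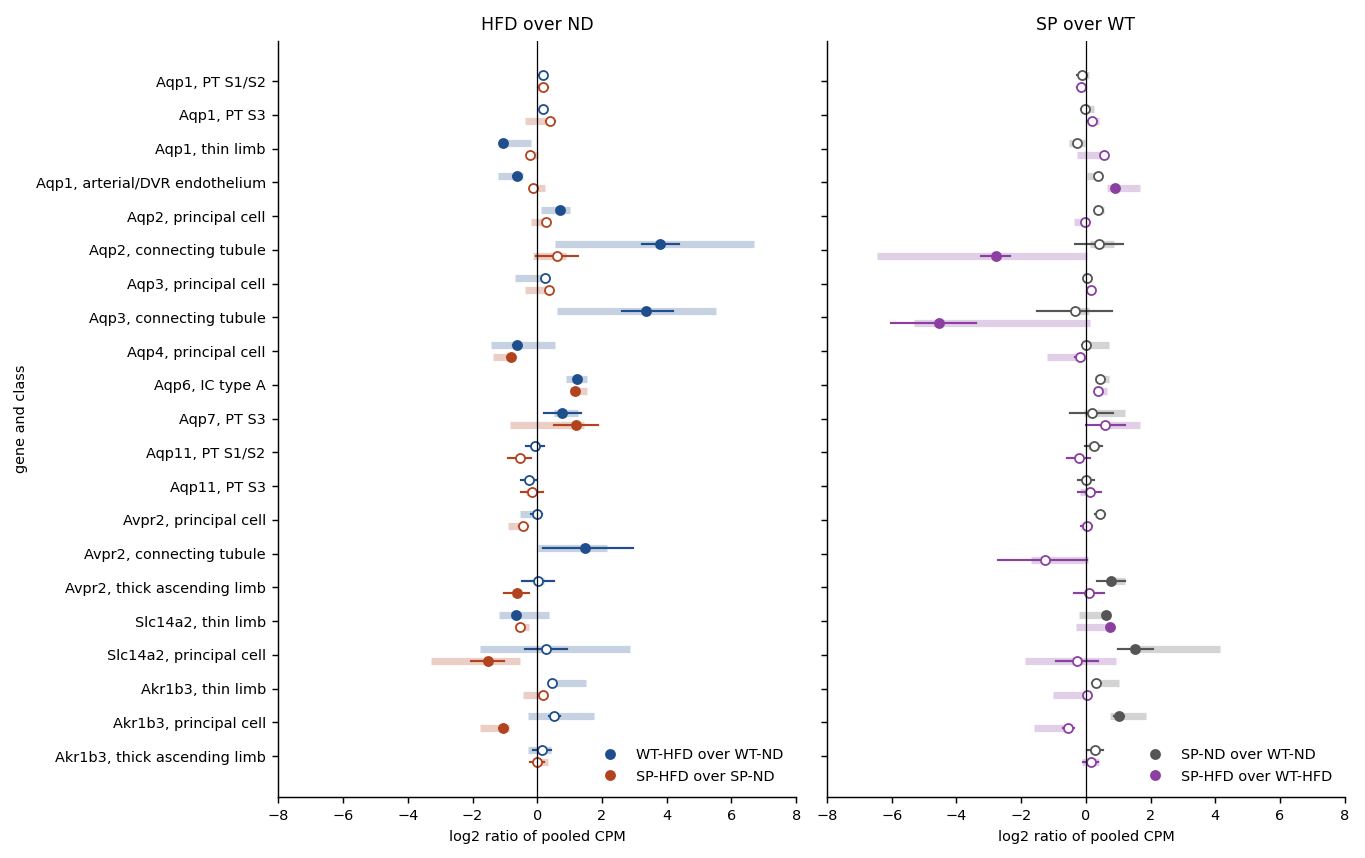
Log2 ratio of pooled CPM for the 21 gene and class pairs, HFD over ND on the left and SP over WT on the right. Points are the reported ratios (filled where past 1.5-fold), thin lines their exact 95% counting intervals and pale bars the range over the processing alternatives; Aqp6 in type A intercalated cells lay above 0 in both diet pairs in each alternative with a value, and the connecting tubule bars for Aqp2 and Aqp3 were the widest.

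The cells named principal cells at the resolution used separated into a cluster led by Btc (69 to 108 cells per library) and one led by Kcne1 (345 to 480 cells). At a resolution of 1.0, 352 Btc-led cells were again principal cells, but of the Kcne1-led cells only 569 were, while 728 were named connecting tubule and 362 urothelium. The Kcne1-led cluster is thus mixed and is called by its leading gene. Its share named principal cells was 30.6% in WT-ND and 31.2% in SP-ND, and 34.2% in WT-HFD and 40.9% in SP-HFD. The Kcne1-led cells carried connecting tubule markers, summing to 29829 CPM in WT-ND and 34352 in SP-ND, and 12580 in WT-HFD and 13400 in SP-HFD, against 599 to 832 CPM in Btc-led cells. Principal cell markers summed to 10683 to 14841 CPM in Btc-led and 6195 to 7020 CPM in Kcne1-led cells. The clusters are kept apart below because the members differed between them, and a value over all principal cells includes the mixed cluster.

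Avpr2, the receptor, was at 457 CPM in WT-ND and 648 in SP-ND, and 309.9 in WT-HFD and 352 in SP-HFD in Btc-led cells. SP-ND was the highest and both HFD libraries were below both ND libraries. The SP diet ratio was -0.88 (-1.09 to -0.67), past 1.5-fold, and that of WT was -0.56 (-0.81 to -0.31), short of it. Of all genes in Btc-led cells, 13.7% were past 1.5-fold between the SP diets and 18.9% between the WT diets. Among those with at least 200 UMIs, as Avpr2, Aqp3 and Aqp4 had there, the shares were 17.3% and 30.4%. In Kcne1-led cells Avpr2 was at 158, 161, 194 and 159 CPM, and no pair of libraries reached 1.5-fold. Cells with an Avpr2 UMI were 71.7% to 91.3% of Btc-led cells (23.1% to 39.1% with each cell thinned to 1000 UMIs) against 0.592% to 1.351% of T or NK cells (0% to 1.55% thinned), at median depths of 6883 to 10461 and 1601 to 2829 UMIs. Over all principal cells, 98.0% to 99.0% of the cells with an Avpr2 UMI also had an Aqp2 UMI, against 56.9% to 79.1% of those without, at median depths of 6029 to 9280 and 2924 to 3556 UMIs.

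Aqp2, the vasopressin-regulated apical channel, stayed within 1.5-fold in Btc-led cells, at 10529 CPM in WT-ND and 13093 in SP-ND, and 11225 in WT-HFD and 11354 in SP-HFD. The SP-ND to WT-ND ratio there was 0.31 (0.27 to 0.36) and that of SP-HFD to WT-HFD 0.02 (-0.02 to 0.06), so no pair of libraries reached 1.5-fold. In Kcne1-led cells Aqp2 was at 2874 CPM in WT-ND and 3661 in SP-ND, and 4734 in WT-HFD and 5004 in SP-HFD. Both HFD libraries were above both ND libraries there. The diet ratio was 0.72 in WT (0.67 to 0.77), past 1.5-fold, and 0.45 in SP (0.41 to 0.49), where 12.3% and 9.49% of all genes were past it. The genotype ratios in Kcne1-led cells were 0.35 on ND and 0.08 on HFD. Among the Kcne1-led cells named principal cells at a resolution of 1.0, no Aqp2 ratio was past 1.5-fold (0.47 between the WT diets and 0.09 between the SP diets), and among those named connecting tubule both diet ratios were (0.66 and 0.68). Over all principal cells the WT diet ratio of Aqp2 was 0.69, past 1.5-fold, and the SP one 0.28. Over all settings the WT ratio ran from 0.13 to 1.0, so the call was lost in some, and the SP ratio from -0.20 to 0.29, so its direction turned. Clustered at a resolution of 1.0, principal cells held Aqp2 at 7524, 9609, 9699 and 9408 CPM.

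Aqp3, the basolateral water and glycerol channel, differed in opposite directions in the clusters. In Btc-led cells it was at 3811 CPM in WT-ND and 3707 in SP-ND, and 2339.5 in WT-HFD and 2779 in SP-HFD. In Kcne1-led cells the levels were 1117, 1669, 1107 and 1869 CPM. The HFD libraries were thus the lower pair in the first cluster and the higher pair in the second. The ratios were -0.70 in WT (-0.79 to -0.62, past 1.5-fold) and -0.42 in SP in Btc-led cells, and 0.58 in WT and 0.76 in SP (0.69 to 0.82, past 1.5-fold) in Kcne1-led cells. The WT ratio in Btc-led cells fell short of 1.5-fold, at -0.58, without mitochondrial UMIs in the CPM. Among Kcne1-led cells named principal cells at a resolution of 1.0 the diet ratios of Aqp3 were 0.33 and 0.41, both short of it, and among those named connecting tubule 0.68 and 1.00. Neither genotype pair reached 1.5-fold in either cluster, with ratios from -0.04 to 0.25. The connecting tubule marker sum of Kcne1-led cells given above was lower in both HFD libraries, and its part in the Aqp2 and Aqp3 values was not tested.

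Aqp4, the other basolateral channel, was lower on HFD than on ND in Btc-led cells. It was at 2295 CPM (2168 to 2428) in WT-ND and 2125 (2021 to 2234) in SP-ND, and 852 (793 to 915) in WT-HFD and 829.99 (771 to 892) in SP-HFD. Both HFD libraries were below both ND libraries, with ratios of -1.43 in WT (-1.56 to -1.30) and -1.36 in SP (-1.49 to -1.23). The genotype ratios were -0.11 on ND and -0.04 on HFD. Most Btc-led cells contributed, with an Aqp4 UMI in 98.6% of cells in each ND library, 88.7% in WT-HFD and 88.9% in SP-HFD (thinned shares of 82.6%, 58.7%, 84.1% and 50.9%), and no cell held more than 9.13% of the UMIs. The size of the WT gap depended on the upper limit on genes per barcode. With the barcodes over 5000 genes added, Aqp4 in Btc-led cells was at 2267.5 CPM in WT-ND and 2132 in SP-ND, and 1505.5 in WT-HFD and 858 in SP-HFD. Over all principal cells the diet ratio was -0.63 in WT and -0.82 in SP, both past 1.5-fold, and with those barcodes the WT ratio turned to 0.55. With more doublets removed it was -0.32. In Kcne1-led cells Aqp4 was low, at 45.3, 19.04, 25.04 and 36.2 CPM.

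**Figure D3:**
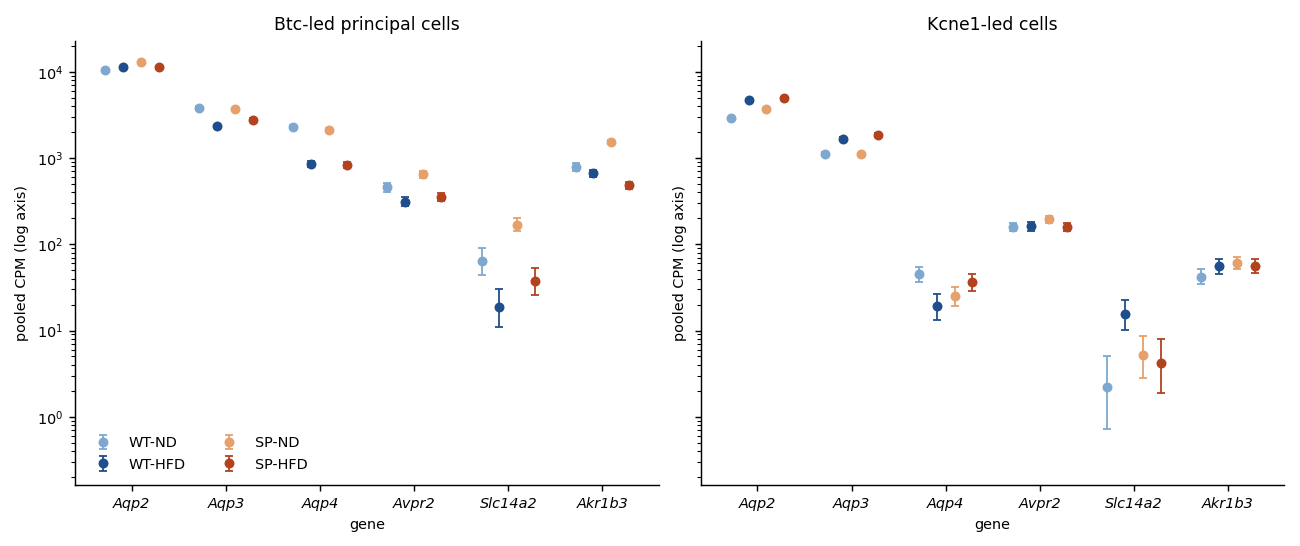
Pooled CPM (log axis) of 6 genes in Btc-led principal cells (left) and in the mixed Kcne1-led cells (right), 1 point per library with its exact 95% counting interval. In Btc-led cells the HFD points of Aqp4 (852 and 829.99 CPM) sit below the ND points (2295 and 2125 CPM) in both genotypes, while Aqp2 lies between 10529 and 13093 CPM in all 4 libraries.

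Connecting tubule cells held little of these genes at the resolution used, with Aqp2 at 15.3 CPM in WT-ND and 20.0 in SP-ND, and 210 in WT-HFD and 30.5 in SP-HFD. Aqp3 was at 8.73, 88.8, 6.86 and 3.81 CPM. Outside WT-HFD both were under the T or NK levels (33.0 to 100.05 CPM of Aqp2 and 28.1 to 36.1 CPM of Aqp3). WT-HFD stood alone as the high library for both, with ratios to WT-ND of 3.78 and 3.35, and for Avpr2 (10.6 CPM from 21 UMIs against 3.82 CPM from 7 UMIs in WT-ND, a ratio of 1.47). The SP-HFD to WT-HFD ratios were -2.79 for Aqp2 and -4.54 for Aqp3. Of all genes in the class, 14.3% were past 1.5-fold between the WT diets and 13.1% between the genotypes on HFD. The same library also carried the most proximal tubule S1/S2 markers in that class (1077 CPM, against 150 to 424 CPM elsewhere) and the least connecting tubule marker RNA (17594 CPM, against 35900 to 53949 CPM). Clustered at a resolution of 1.0, connecting tubule cells held Aqp2 at 561, 824, 620 and 846 CPM, with no gap between SP-HFD and WT-HFD and a WT diet ratio of 0.55, short of 1.5-fold. The WT diet ratio of Avpr2 fell to 0.01 without integration.

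Aqp6, the intracellular anion and water channel of acid-secreting cells, was higher on HFD in both genotypes. In type A intercalated cells (281, 193, 144 and 264 cells) it was at 739.55 CPM (704 to 776) in WT-ND and 1010.2 (965 to 1057) in SP-ND, and 1742 (1690 to 1796) in WT-HFD and 2256 (2204 to 2308) in SP-HFD. Both HFD libraries were above both ND libraries, and the counting intervals did not overlap. The diet ratio was 1.24 in WT (1.15 to 1.32), a fold of 2.36, and 1.16 in SP (1.09 to 1.23), a fold of 2.23, in a class where 12.6% and 9.08% of all genes were past 1.5-fold. Over the 12 alternatives that gave a value it lay between 0.90 and 1.53 in WT and between 1.01 and 1.53 in SP. SP was above WT on each diet, by 0.45 on ND and by 0.37 on HFD, short of 1.5-fold. The type A marker genes summed to 5662, 6576, 6117 and 7513 CPM, also higher in both HFD libraries and highest in SP-HFD. Principal cell markers in the class, given below, were lower in both HFD libraries. The part of either in the Aqp6 values was not tested. Aqp6 was found in 90.04% to 98.5% of these cells, no cell held more than 5.03% of its UMIs, and type B cells carried 50.6 to 101 CPM.

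The same type A cells carried RNA of the principal cell members, described here after the values were seen. Avpr2 was at 98.2 CPM in WT-ND and 85.9 in SP-ND, and 28.3 in WT-HFD and 29.1 in SP-HFD. Aqp2 was at 1294, 806, 938 and 816 CPM. Avpr2 was lower in both HFD libraries, by ratios of -1.79 (-2.21 to -1.40) in WT and -1.56 (-1.95 to -1.19) in SP. Of the cells with an Avpr2 UMI, 86.1% to 95.4% had an Aqp2 UMI, against 26.9% to 42.0% of those without, at median depths of 13040 to 18560 and 5076 to 11990 UMIs. Principal cell markers in the class summed to 3432 CPM in WT-ND and 2214 in SP-ND, and 1291 in WT-HFD and 1517 in SP-HFD, lower in both HFD libraries as Avpr2 was, and their part in its difference was not tested.

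In thin limb cells (139, 227, 112 and 191 cells) Aqp1 was at 4545 CPM in WT-ND and 3792 in SP-ND, and 2202 in WT-HFD and 3268 in SP-HFD. WT-HFD was the low library, with a ratio to WT-ND of -1.05 (-1.10 to -0.99), past 1.5-fold as 25.3% of all genes were, while the SP diet ratio was -0.21 and the genotype ratios -0.26 on ND and 0.57 on HFD. Over all settings the WT diet ratio of Aqp1 ran from -1.05 to -0.19, so the call was lost in some, and the HFD genotype ratio from -0.26 to 0.57, so its direction turned. Slc14a2 was at 1996 CPM (1910 to 2085) in WT-ND and 3054 (2938 to 3174) in SP-ND, and 1263 (1218 to 1310) in WT-HFD and 2111 (2038 to 2186) in SP-HFD. SP was above WT on both diets and ND above HFD in both genotypes. The WT diet ratio of Slc14a2 was -0.66 (-0.74 to -0.58), past 1.5-fold, and the SP one -0.53. Over all settings the WT one ran from -1.19 to 0.36 and turned direction in 2. Its genotype ratios were 0.61 on ND (0.53 to 0.70) and 0.74 on HFD (0.67 to 0.81), both past 1.5-fold, in a class where 5.74% and 24.8% of all genes were. On HFD the median ratio of all thin limb genes was itself 0.27. The 3′ counts do not separate the UT-A isoforms of Slc14a2.

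The Slc14a2 values rested on few cells. Between 27.2% and 31.2% of thin limb cells had a UMI (18.1% to 23.2% thinned), a narrower range than that of the levels, and the top 10% of cells held 79.2% to 92.3% of the UMIs. The genotype ratio reversed where each cell was given equal weight (-0.21 on ND) and where the libraries were not integrated (-0.30 on HFD). In each library fewer of the cells with Slc14a2 than of those without it held Aqp1. An Aqp1 UMI was found in 31.7% of cells with Slc14a2 in WT-ND and 40.0% in SP-ND, and 72.7% in WT-HFD and 46.2% in SP-HFD, against 80.5% to 86.7% of Slc14a2-negative thin limb cells. WT-HFD again differed. Its thin limb class held a cluster of 60 cells found in no other library, and without it Aqp1 there was at 2653 CPM and Slc14a2 at 1776 CPM. Proximal tubule S1/S2 markers in the class summed to 1567 CPM in WT-HFD and to 93.995 to 288 CPM in the others, and their part in the WT-HFD values was not tested.

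In principal cells Slc14a2, which encodes the urea transporters of the inner medullary collecting duct, was at 13.9 CPM in WT-ND and 39.8 in SP-ND, and 16.7 in WT-HFD and 13.8 in SP-HFD. SP-ND was the high library, with a ratio of 1.52 to WT-ND (0.99 to 2.07) and an SP diet ratio of -1.52 (-2.06 to -1.02), both past 1.5-fold. With each cell given equal weight the SP diet ratio was -0.54, short of it. These levels came from 11 to 20 cells per library, and 1 cell held 22.7% to 64.3% of the UMIs.

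Aqp1 in the arterial or descending vasa recta endothelium (169 to 260 cells) was at 2373 CPM in WT-ND and 3101 in SP-ND, and 1522 in WT-HFD and 2850.2 in SP-HFD. The SP libraries were above the WT libraries, by 0.39 on ND and by 0.91 on HFD (0.82 to 0.99), the HFD ratio past 1.5-fold with 6.24% of all genes. WT-HFD was again the lowest, with a ratio to WT-ND of -0.64 (-0.74 to -0.54), past 1.5-fold with 9.36% of all genes, though short of it at -0.44 with doublets kept and no integration. The share of cells with an Aqp1 UMI was 49.1%, 36.7%, 40.4% and 50.4%.

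In the proximal tubule, where SGLT2 acts, Aqp1 did not differ by 1.5-fold between any of the 4 pairs of libraries. It was at 152, 172, 138 and 156 CPM in S1/S2 and 149, 168, 144.5 and 190.5 CPM in S3 cells. The genotype ratios were -0.13 (-0.27 to -0.00) on ND and -0.14 (-0.28 to 0.00) on HFD in S1/S2. Aqp11 was also within 1.5-fold in each pair, at 31.7, 30.3, 37.5 and 25.9 CPM in S1/S2 and 29.5, 24.8, 29.7 and 26.8 CPM in S3. Aqp7 in S3 was at 4.24, 7.23, 4.80 and 10.98 CPM from 49, 58, 37 and 43 UMIs. Its HFD libraries were the higher pair, with ratios of 0.77 (0.20 to 1.349) in WT and 1.19 (0.52 to 1.87) in SP, where 14.7% and 16.9% of all S3 genes were past 1.5-fold. The SP ratio turned to -0.85 with doublets kept and no integration, and the WT ratio was 0.51, short of 1.5-fold, with each cell given equal weight. Aqp4 in S3, added after its values were seen, ran from 0.35 CPM in WT-ND to 27.6 in SP-HFD. It had 46 UMIs in 9 cells in WT-HFD (52.2% in 1 cell), 37 in 16 in SP-ND and 108 in 38 in SP-HFD. Over the settings its diet ratios ran from 3.69 to 4.75 in WT and 1.23 to 5.84 in SP. The genotype ratios ran from 3.54 to 4.13 on ND and 1.81 to 3.59 on HFD, where 8.28% and 6.48% of all S3 genes were past 1.5-fold.

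Akr1b3, aldose reductase, in thin limb cells was at 829.8 CPM in WT-ND and 1036.5 in SP-ND, and 1143 in WT-HFD and 1169 in SP-HFD, with no ratio past 1.5-fold. In Btc-led principal cells it was at 788, 662, 1534 and 485 CPM, with a genotype ratio on ND of 0.96 (0.80 to 1.13) and an SP diet ratio of -1.66 (-1.82 to -1.497), both past 1.5-fold, where 7.58% and 13.7% of all genes were. Over all principal cells Akr1b3 was at 183, 263, 372 and 180.4 CPM, and the same ratios were 1.02 and -1.04. In Btc-led cells 1 cell held 26.0% of the SP-ND UMIs. In the thick ascending limb it was level at 36.6 to 44.8 CPM.

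Outside the classes set for Akr1b3, the proximal tubule is described after its values were seen. There Akr1b3 was at 48.0 CPM (45.0 to 51.2) in WT-ND and 19.5 (17.2 to 22.1) in SP-ND, and 128 (122 to 134) in WT-HFD and 129.8 (122 to 138) in SP-HFD. The HFD libraries were alike, with a genotype ratio of 0.02 (-0.09 to 0.13), while on ND the SP library was the lower, at -1.30 (-1.503 to -1.10). The diet ratio was 1.41 in WT (1.30 to 1.53) and 2.73 in SP (2.53 to 2.94), in a class where 15.6% and 16.6% of all genes were past 1.5-fold, against 7.6% between the genotypes on ND. Both segments were higher on HFD: Akr1b3 was at 16.5, 91.5, 12.2 and 103 CPM in S1/S2 and 71.1, 159.9, 24.4 and 157 CPM in S3. The SP-ND and WT-ND levels in S1/S2 were within 1.5-fold. Over the settings that ratio ran from -4.17 to -0.04, against -2.34 to -1.43 in S3. The share of cells with a UMI was 29.9% in WT-ND and 22.5% in SP-ND, and 61.4% in WT-HFD and 59.4% in SP-HFD (thinned shares of 4.30%, 13.8%, 1.33% and 9.41%). No cell held more than 1.58% of the UMIs. Over the settings that gave a value, the reported one included, the diet ratio lay between 0.50 and 1.66 in WT (11 settings), short of 1.5-fold at the low end, and between 2.62 and 3.90 in SP (10 settings). T or NK cells carried 47.9, 103, 85.9 and 81.7 CPM, and 8.94%, 25.4%, 17.6% and 19.8% of them had a UMI (6.22%, 7.33%, 5.60% and 10.0% thinned), at median depths of 1601 to 2829 UMIs against 8084 to 15013 in the proximal tubule. The thinned proximal tubule share exceeded that of T or NK cells in WT-HFD and not in the other 3 libraries. Akr1b3 was found in many classes, with means of 79.6 CPM in T or NK cells, 180 in podocytes and 8.59 in neutrophils. Whether the T or NK values are background or RNA of those cells was not tested, so they set no floor for the proximal tubule. The SP-ND level of 19.5 CPM was also under the T or NK level.

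In the arterial or descending vasa recta endothelium Akr1b3, also described after its values were seen, was at 312 CPM in WT-ND and 299 in SP-ND, and 1608 in WT-HFD and 1032 in SP-HFD. The HFD libraries were higher by 2.36 in WT (2.18 to 2.55) and 1.78 in SP (1.61 to 1.96), past 1.5-fold as 9.36% and 7.26% of all genes were. The share of cells with a UMI was 38.5%, 43.8%, 38.3% and 43.8%, and the top 10% of cells held 77.9% to 92.7% of the UMIs. Thin limb markers in the class summed to 138, 570.3, 294 and 401 CPM, also higher in the HFD libraries, and their part in the Akr1b3 values was not tested. The Akr1b3 genotype ratio on HFD, -0.64, turned to 0.09 with the barcodes over 5000 genes added and to 0.91 with more doublets removed.

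**Figure D4:**
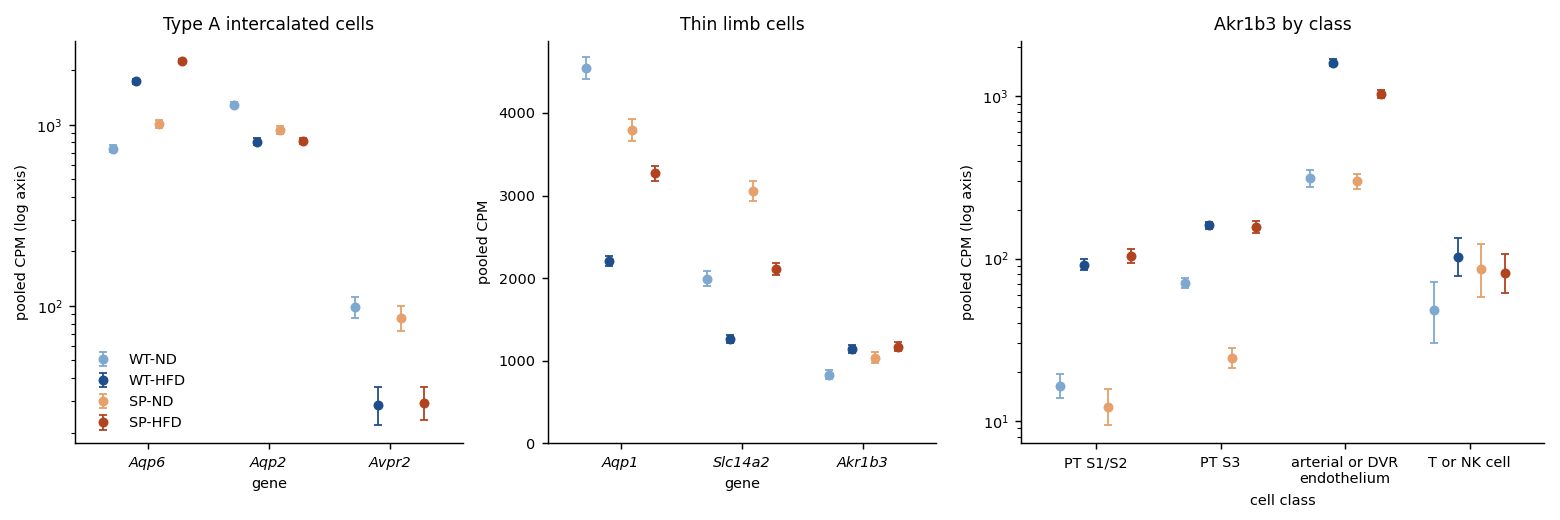
Pooled CPM with exact 95% counting intervals, 1 point per library, for Aqp6, Aqp2 and Avpr2 in type A intercalated cells (left, log axis), Aqp1, Slc14a2 and Akr1b3 in thin limb cells (middle, axis from 0) and Akr1b3 in 4 classes (right, log axis). Aqp6 and Akr1b3 were higher and Avpr2 lower in both HFD libraries in the classes shown, except Akr1b3 in T or NK cells, where WT-ND was the lowest and the other 3 lay from 81.7 to 103 CPM. In thin limb cells the Akr1b3 differences were short of 1.5-fold, and the SP diet ratio changed direction over the settings (-0.45 to 0.26).

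Avpr2 in the thick ascending limb, where it acts on salt uptake, was at 11.3 CPM in WT-ND and 19.3 in SP-ND, and 11.6 in WT-HFD and 12.4 in SP-HFD. SP-ND had the highest pooled level, with a ratio to WT-ND of 0.77 (0.35 to 1.21) and an SP diet ratio of -0.64 (-1.03 to -0.26), past 1.5-fold where 6.14% and 8.16% of all genes were. Thinned to 1000 UMIs per cell, 1.32%, 1.78%, 1.86% and 1.44% of the cells had a UMI, against 7.03%, 8.97%, 16.6% and 9.47% unthinned, and the thinned shares did not set SP-ND apart. T or NK cells carried 1.87 to 14.6 CPM of Avpr2, with a UMI in 0% to 1.55% of cells thinned and in 0.592% to 1.351% unthinned, at median depths of 1601 to 2829 UMIs against 5898 to 9705 in the thick ascending limb. The Avpr2 level and thinned share there overlapped those of T or NK cells. The thick ascending limb mean of 13.7 CPM was above 6.72 in T or NK cells, 0.463 in distal convoluted tubule and 0.760 in proximal tubule S1/S2. Whether the SP-ND difference is one of expression was not tested. The SP diet ratio fell short of 1.5-fold in 3 alternatives, to -0.54 at the least.

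Of 37 further genes of the same pathways (other aquaporins, vasopressin signalling, Aqp2 transcription and trafficking, tonicity and osmolytes, urea transport and arginine, prostaglandin and endothelin modulators), 28 had enough UMIs in principal cells. Between the WT diets 6 were higher and 4 lower past 1.5-fold in WT-HFD, between the SP diets 2 were higher and 4 lower in SP-HFD, and between the genotypes 1 was higher and 3 lower in SP-ND and 1 higher and 1 lower in SP-HFD. The background in principal cells was 13.6%, 9.27%, 5.34% and 4.86% of all genes in the same order. Slc6a12, the betaine transporter that imports an osmolyte, was at 3.92 CPM in WT-ND and 10.46 in SP-ND, and 19.7 in WT-HFD and 26.0 in SP-HFD. It was higher on HFD in both genotypes (2.33 and 1.31) and higher in SP on ND (1.41). The lowest of these levels, in WT-ND, rests on few UMIs, and all include the mixed Kcne1-led cells. Slc5a3, the myo-inositol transporter, was at 65.6, 145, 84.8 and 122 CPM, with a diet ratio of 1.14 in WT, past 1.5-fold, and 0.52 in SP. Ass1, argininosuccinate synthase, was at 89.1, 50.1, 58.4 and 29.3 CPM and was lower on HFD in both genotypes and lower in SP on both diets, from -0.61 to -0.99. The share of proximal tubule cells among kept cells ranked the libraries in the same order, at 20.0%, 13.5%, 14.1% and 8.22%. Its part in the Ass1 values was not tested, and no T or NK level was taken for Ass1. Akap7, a kinase anchor, was at 21.4, 9.87, 17.4 and 11.2 CPM, lower on HFD in both genotypes. Adcy6, the adenylyl cyclase of the receptor's pathway, and Vamp2, a vesicle protein of AQP2 traffic, were higher past 1.5-fold between the WT diets, at 0.80 and 0.84, and their SP diet ratios were 0.17 and 0.47. The difference between the genotypes was not tested. Of the aquaporins outside the 10, none reached 20 UMIs in these cells.

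In thin limb cells the same list gave 8 higher and 6 lower of 26 between the WT diets, 2 and 3 of 22 between the SP diets, 3 and 0 of 21 between the genotypes on ND and 5 and 7 of 25 on HFD, against 25.3%, 7.54%, 5.74% and 24.8% of all genes. Both pairs with many calls include WT-HFD. Slc5a3 was higher on HFD in both genotypes, at 153 CPM in WT-ND and 205 in SP-ND, and 286 in WT-HFD and 420.3 in SP-HFD, with diet ratios of 0.90 in WT and 1.03 in SP. Hspa4l, a chaperone induced by high tonicity, was at 38.7, 31.0, 73.9 and 65.5 CPM and was higher in SP on both diets (0.93 and 1.08). Ptger4, a prostaglandin E2 receptor, was at 34.7, 8.62, 21.1 and 9.27 CPM and was lower on HFD in both genotypes (-2.01 and -1.19).

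The upper limit of 5000 genes per barcode, which the study's methods set, removed barcodes that held a large share of the UMIs of most members. The barcodes above it were 0.934% of barcodes in WT-ND and 2.13% in SP-ND, and 2.1% in WT-HFD and 1.42% in SP-HFD. They held 4.67%, 9.68%, 8.50% and 6.03% of all UMIs, but 48.3%, 44.1%, 72.5% and 61.2% of the Slc14a2 UMIs, 25.5%, 34.9%, 45.4% and 18.8% of Aqp2 and 20.2%, 60.2%, 57.2% and 20.1% of Aqp4. Matched to the named classes by expression profile, classes given to these barcodes included thin limb (21, 39, 67 and 53 barcodes), type A intercalated (39, 52, 60 and 43) and Btc-led principal cells (6, 15, 36 and 8). Proximal tubule S3 (8, 80, 6 and 19) and S1/S2 (7, 34, 5 and 9) took far more of them in WT-HFD than in the other libraries. A profile match of kept cells put 84.8% of 5000 in their own class. The profiles were built from kept cells, the checked ones among them, and no checked cell had over 5000 genes. That share therefore does not measure how well barcodes above the limit were matched. Over the libraries, the barcodes above the limit also held 22.2% to 43.5% of Aqp1, 17.5% to 41.8% of Aqp3 and 20.3% to 48.0% of Aqp6 UMIs. The shares were 17.4% to 40.6% for Avpr2 and 10.2% to 47.1% for Akr1b3. Aqp7 and Aqp11 were not enriched in WT-ND or SP-ND, where these barcodes held 3.59% and 6.04% of the Aqp7 and 3.86% and 5.0% of the Aqp11 UMIs. What the barcodes above the limit are was not tested.

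**Figure D5:**
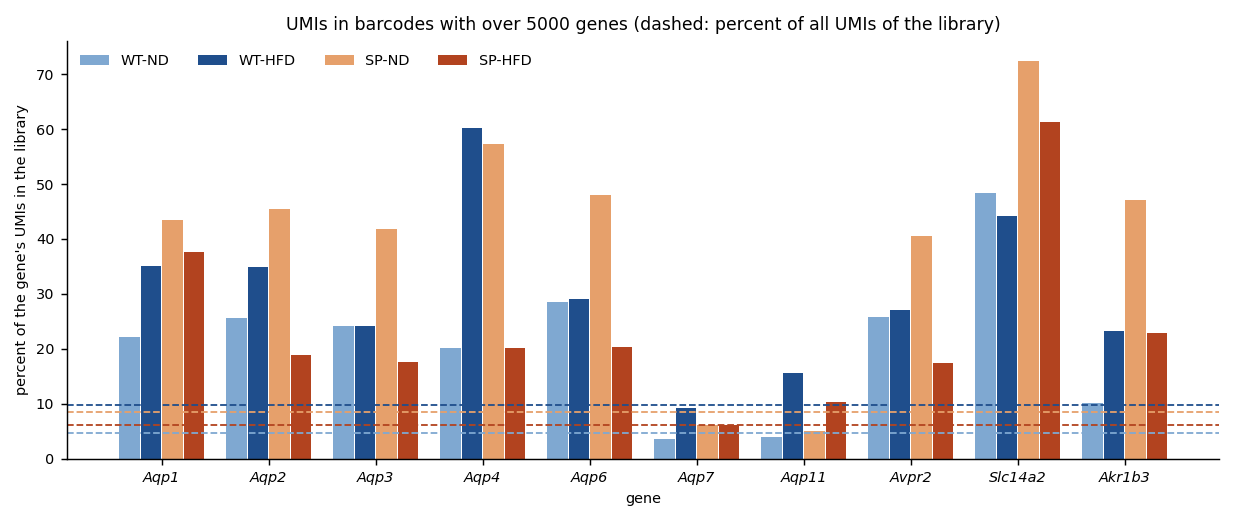
Percent of each gene's UMIs in a library that lay in barcodes with over 5000 genes, 1 bar per library, with dashed lines for the percent of all UMIs of that library in those barcodes. Bars of Slc14a2 reach 44.1% to 72.5% against dashed lines at 4.67% to 9.68%, whereas those of Aqp7 run from 3.59% to 9.18%.

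Across 65 points of class and library (17 classes) and 8148 genes, the patterns most like each member's, by Pearson's r of log2(CPM + 1) and as a description over points that share libraries, were those of Npy6r (0.915), Mcoln3 (0.914) and Fxyd4 (0.911) for Aqp2, Slc4a1 (0.90) for Aqp6, Tert (0.845) for Slc14a2, Muc1 (0.841) for Avpr2, Fxyd4 (0.904) for Aqp3, Hist3h2a (0.827) for Akr1b3 and Aqp2 itself for Aqp4 (0.824). Lower values were found for Aqp1 (Afap1l1, 0.794), Aqp11 (Acot12, 0.717) and Aqp7 (Cyb5a, 0.656).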

How the data were processed

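The deposited files hold whole-number UMI counts of genes in barcodes, produced by the authors with Cell Ranger (mm10). The file header names version 6.1.2 and the submitters' processing notes 2.1.1. Each genotype and diet had 1 library, so no test was made. The study's limits were applied (200 to 5000 genes, mitochondrial UMIs under 50%), and scored doublets were removed (0.8% per 1000 cells, by simulated neighbours). Libraries were integrated with Seurat 5.3.0 (R 4.3.3; 2000 features without the members or pathway genes, 50 components) and clustered at a resolution of 0.5. That resolution did not part intercalated types, proximal segments or arterial endothelium, so these came from clusters at 1.0 within the same lineage. Classes were named from fixed marker lists, with thresholds (mean log2 marker level of at least 1, at least 3 markers at 5 CPM) set after the clusters were seen. Pooled CPM carry exact Poisson intervals and log2 ratios exact conditional binomial ones, at 95%, computed with Python 3.11.15 and scipy 1.17.1 and checked on simulated data. The simulated counts were independent Poisson draws, so that check does not cover UMIs gathered in few cells. The intervals cover counting error only. A count of 0 took a floor of 3.

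The members and lists were chosen with earlier results of these data known. The text names the 10 members in textbook classes and their highest class, pathway genes past 1.5-fold in principal or thin limb cells, the most alike genes and Slc5a2. The Btc- and Kcne1-led split, the barcodes over 5000 genes, Avpr2 and Aqp2 in type A cells, Aqp4 in proximal tubule S3, and Akr1b3 in proximal tubule and endothelium were added after their values were seen. In all, 14 alternatives were tried, of which 3 (shared barcodes left out, barcodes over 5000 genes added, clusters of 1 library left out) were chosen after seeing the data. The division of Kcne1-led cells by their name at a resolution of 1.0 was also added then.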

Additional observations from a re-analysis of the deposited data

Results flagged for a closer look

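Aqp4 in the mixed Kcne1-led cells was lower in SP-ND than in WT-ND, with a log2 ratio of -0.85, and higher in SP-HFD than in WT-HFD, with a ratio of 0.93, so the genotype pairs went opposite ways. The difference between them was not tested. These ratios rest on 33 to 103 UMIs per library.

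The barcodes with over 5000 genes, which the comparisons leave out, carried Slc14a2 at 583.5 CPM in WT-ND and 958.2 in SP-ND, and 306.0 in WT-HFD and 1102.0 in SP-HFD. The ratio of SP-ND to WT-ND there was 0.72 (0.65 to 0.78) and that of SP-HFD to WT-HFD 1.85 (1.79 to 1.91). These ratios pool barcodes of all classes. By profile match, thin limb barcodes were 21 of 153 in WT-ND, 67 of 299 in SP-ND, 39 of 315 in WT-HFD and 53 of 188 in SP-HFD. The part of that mix in the ratios was not tested. What these barcodes are was not tested.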

How the results depend on the processing

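No paired analysis was possible because each condition was 1 library and the results come from no test; for the same reason no replicate could be left out. The settings with doublets kept and with members kept as features were also run without integration, so each changes a pair of choices. Of 1662 recomputed values, 1292 moved by less than the counting interval, 354 by more and 16, all of ratios past 1.5-fold as reported, reversed. A change of sign in a ratio short of 1.5-fold is counted among the values that moved or did not. With barcodes over 5000 genes added, the SP-HFD to WT-HFD ratio of Akr1b3 in arterial endothelium became 0.09 and of Slc14a2 in Btc-led cells -0.66, and the WT diet ratio of Aqp4 in principal cells 0.55 and of Slc14a2 in Btc-led cells 1.06. With 2 times the doublets removed, the same 2 SP-HFD to WT-HFD ratios became 0.91 for Akr1b3 and -1.53 for Slc14a2. In connecting tubule the SP-HFD to WT-HFD ratio became 0.03 for Aqp2 and 0.12 for Aqp3 without integration, and 0.04 and 0.05 at resolution 1.0. For Slc14a2 in thin limb, SP-HFD to WT-HFD became -0.30 and the WT diet ratio 0.36 without integration, -0.19 and 0.21 with doublets kept, and SP-ND to WT-ND -0.21 as a mean over cells. Aqp7 in S3 between the SP diets became -0.85 with doublets kept. The causes were not tested.

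The member counts past the fold were, for SP-HFD to WT-HFD (4), 7 with ambient RNA subtracted, 2 at 2-fold, 8 with barcodes over 5000 genes, 2 with doublets kept, 7 as a mean over cells, 2 without integration, 1 at resolution 1.0 and 7 with 2 times the doublets removed; for SP-ND to WT-ND (4), 2 at 2-fold; and for the WT diets (10), 5 at 2-fold, 4 with doublets kept and 5 at resolution 1.0. Pathway genes in principal cells gave 2 at 2-fold between the SP diets (6). For SP-HFD to WT-HFD (2) they gave 1 with ambient RNA subtracted, at 2-fold, with members kept as features and at resolution 1.0, 5 with doublets kept, and 6 as a mean over cells and without integration. For SP-ND to WT-ND (4) they gave 2 at 2-fold and 7 with doublets kept, as a mean over cells and without integration, and between the WT diets (10), 5 at 2-fold. In thin limb cells they gave 3 with doublets kept and with mitochondrial UMIs under 30% between the SP diets (5). For SP-HFD to WT-HFD (12) they gave 2 with doublets kept and 1 without integration, for SP-ND to WT-ND (3) 0 at 2-fold and 5 with mitochondrial UMIs under 30% and with 2 times the doublets removed, and between the WT diets (14) 8 at 2-fold, 7 with doublets kept and 6 without integration. Fewer values could be computed in the settings without integration and at resolution 1.0, so their lower counts come partly from fewer pairs.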
